A study of Homo sapiens with 6 samples.

Results

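The genes described here are 10 of the S100 family of calcium-binding proteins, S100A2, S100A4, S100A6, S100A7, S100A8, S100A9, S100A10, S100A11, S100A14 and S100A16, taken by name from a table of 48644 genes in KYSE70, an established human cell line of esophageal squamous carcinoma. One stable line carried the doxycycline-inducible hairpin vector pLKO-Tet-On-shSOX2 and the other pLKO-Tet-On-shTP63, so all groups carried an inducible hairpin. Each line had 1 untreated library (day 0) and 2 libraries after 4 days of doxycycline at 50 ng/ml (day 4), which makes 6 libraries in 4 groups. SOX2 and TP63 encode transcription factors of squamous epithelium, and the series set out to find the genes affected by suppressing each. The groups used here hold no line with a non-targeting hairpin, so an effect of doxycycline and an effect of the hairpin cannot be told apart. Numbers in the titles were read as replicate numbers, although they might mark different hairpins. Both day 0 libraries carry number 2, so only day 4 replicate 2 shares its number with the day 0 library of its line. In a difference of day 4 replicate 1 from day 0, induction and the change of number cannot be told apart. No label states separate cultures, and p-values here reflect no more than the spread of these libraries, which may be technical.

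S100 proteins are small calcium-binding proteins with a pair of EF-hand loops. Calcium opens a hydrophobic face on most of them, which then binds partners such as annexins, myosin or p53. Some are secreted and signal through receptors such as RAGE and TLR4. Most S100 genes lie in a cluster on the long arm of chromosome 1, beside the genes of the cornified envelope. In squamous epithelium S100A2 is a gene of basal keratinocytes and a reported target of p63. S100A7, S100A8 and S100A9 are known for strong induction in inflamed epithelium.

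Levels are the deposited values, read as log2(RPKM + 1) with base 2 assumed. RPKM counts reads per length of transcript and per sequenced read, so levels of different genes can be compared, and the added 1 makes changes of low genes look smaller. The read depth is unknown. As a check of the hairpins, TP63 read 3.99 in shTP63 cells without doxycycline, and 2.11 and 2.26 with it. SOX2 read 6.25 in shSOX2 cells without doxycycline, and 4.67 and 5.65 in replicates 1 and 2 with it. In shTP63 cells SOX2 read 5.69 without doxycycline, and 5.41 and 5.55 with it. Induced shSOX2 replicate 2 was thus above both induced shTP63 libraries in SOX2. Between the induced lines SOX2 differed by 0.32 (shTP63 minus shSOX2, limma adjusted p = 0.621), which did not pass. Neither target passed the test against its own day 0 library (limma adjusted p = 0.131 for TP63 and 0.469 for SOX2). Between the induced lines TP63 was called lower in shTP63 cells, by -1.73 (limma adjusted p = 0.0467). Without shSOX2 day 4 replicate 1, or without replicate 2, this call was lost. It was also lost in a fit with no minimum level, which called 0 genes between the induced lines. The uninduced shTP63 library stood apart, with 16167 genes above 0 against 21530 to 23509 in the others, and it is the sole control of its line. Of 10 squamous markers, 8 had at least 1 RPKM in every library. All 12 leukocyte markers and the 3 endothelial markers in the table stayed below 1 RPKM in every library, PTPRC, CD14 and LYZ among them. Of 8 markers of glandular epithelium, KRT8 and KRT18 were present and the other 6 stayed below 1 RPKM. In bulk RNA, fewer cells expressing a gene and less RNA per cell cannot be told apart.

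The promoter windows of the 3 members whose values ranged most widely over the libraries, S100A2, S100A4 and S100A6, are shown because these neighbours in the cluster differed in direction after TP63 hairpin induction. They are from RefSeq on build GRCh38.p14, 250 bases before to 50 after an annotated start, 5′ to 3′, on the gene's strand. S100A2 has another annotated start, and its window is not printed. Capitals mark a match to the AP-1 motif TGANTCA on either strand. The S100A2 window is chr1:153565795-153566094, minus strand, the S100A4 window is chr1:153545757-153546056, minus strand, and the S100A6 window is chr1:153535942-153536241, minus strand.
S100A2: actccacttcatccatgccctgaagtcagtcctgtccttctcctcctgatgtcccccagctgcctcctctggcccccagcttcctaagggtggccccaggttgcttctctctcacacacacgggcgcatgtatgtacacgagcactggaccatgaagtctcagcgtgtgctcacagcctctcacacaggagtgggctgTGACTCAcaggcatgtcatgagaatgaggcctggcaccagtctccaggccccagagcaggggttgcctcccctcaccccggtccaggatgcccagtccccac
S100A4: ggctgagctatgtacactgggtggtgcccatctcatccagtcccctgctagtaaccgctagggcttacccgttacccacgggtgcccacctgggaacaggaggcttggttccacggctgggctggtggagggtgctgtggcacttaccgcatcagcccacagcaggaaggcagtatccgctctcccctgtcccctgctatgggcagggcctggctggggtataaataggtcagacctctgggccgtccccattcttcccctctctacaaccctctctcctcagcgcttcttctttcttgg
S100A6: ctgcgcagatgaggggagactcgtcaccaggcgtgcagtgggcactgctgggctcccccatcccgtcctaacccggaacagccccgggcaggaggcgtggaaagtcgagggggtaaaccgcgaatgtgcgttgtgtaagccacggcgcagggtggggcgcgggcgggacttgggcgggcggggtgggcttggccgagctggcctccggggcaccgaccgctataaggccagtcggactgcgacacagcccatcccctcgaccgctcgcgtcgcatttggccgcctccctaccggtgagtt

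The printed S100A2 window held 1 AP-1 match, which began 52 bases before the start, and the S100A4 and S100A6 windows held none. The window of the other annotated S100A2 start held 0, and which start these cells use was not tested. All 10 genes matched the RefSeq table, with 14 windows between them. Of these, 1 held TGANTCA, compared with 7.71% of all 35116 windows of 300 bases. The SOX motif CATTGT, on either strand, was in 0 of the 14 windows and in 10.8% of all. The decamer element of the p53 family, which p63 also binds, was in 2 of the 14, 1 of S100A7 and 1 of S100A16, and in 6.63% of all. A match of letters describes the window and shows no binding.

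Of the 10 genes 5 were clearly present, S100A16 and S100A14 were low, and S100A9, S100A8 and S100A7 were at or near 0. S100A11, an annexin A1 partner also called calgizzarin, had the highest mean level, 8.92 (range 8.35 to 9.28), and ranked 25th of the 10536 genes tested. S100A6, or calcyclin, followed at 8.29 (7.66 to 9.88). S100A11 was above S100A6 in 5 of 6 libraries, the exception being induced shTP63 replicate 2. S100A2 at 6.47 (4.79 to 7.92) and S100A10 at 6.37 (5.09 to 6.88) could not be ordered, since S100A2 was the higher one in 3 of 6 libraries. S100A4, a gene known from mesenchymal cells and metastasis, averaged 4.43 (3.17 to 5.76) and was below those 4 genes and above the other 5 in each library except induced shTP63 replicate 1, where it exceeded S100A2.

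**Figure D1:**
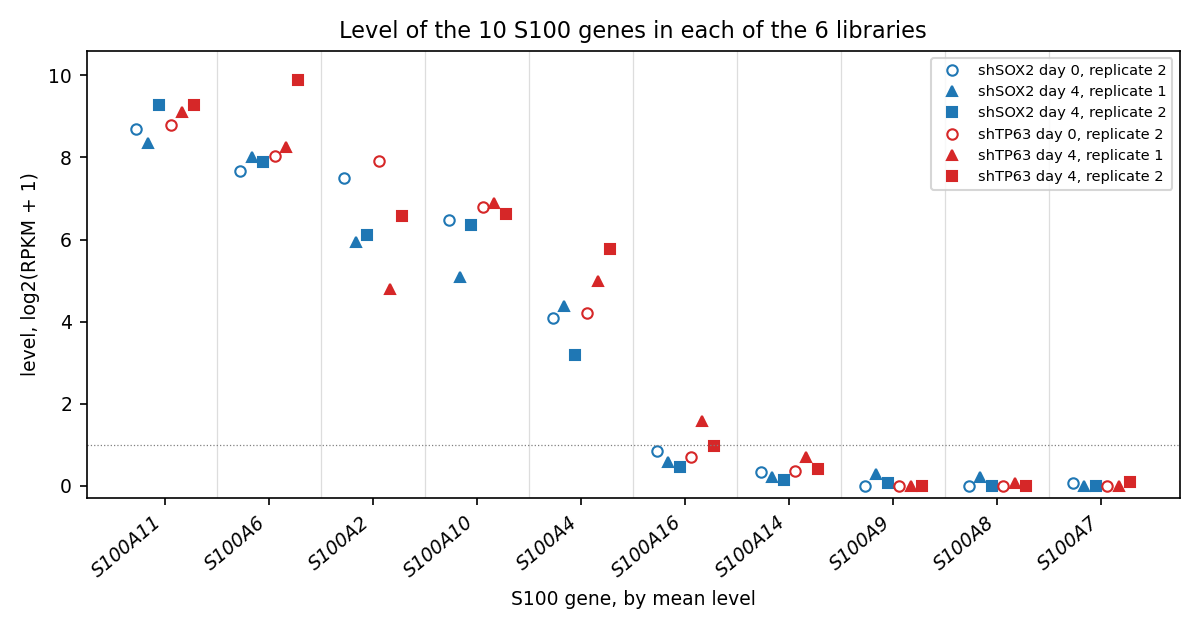
Level of the 10 S100 genes, as log2(RPKM + 1) on the y axis, in each of the 6 libraries; open circles are day 0, filled triangles and squares are day 4 replicates 1 and 2, and the dotted line stands for 1 RPKM. S100A11 and S100A6 lie above 7.5 in every library, while S100A9, S100A8 and S100A7 lie at or near 0.

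The secreted S100 genes of inflamed epithelium were almost absent. S100A8 and S100A9, whose proteins form calprotectin, were each listed above 0 in 2 libraries, with highest levels of 0.22 and 0.30, both in induced shSOX2 replicate 1. S100A7, or psoriasin, was above 0 in 2 libraries and reached 0.09. These values are too low to read a response from. S100A14 and S100A16, a pair of adjacent epithelial S100 genes, were above 0 in every library but reached at most 0.69 and 1.57. A mean of at least 1 RPKM over the libraries was required for testing. S100A2, S100A4, S100A6, S100A10 and S100A11 met it; the other 5 genes did not.

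Summed as linear RPKM, the 10 genes came to 902 in the uninduced shSOX2 library and to 695 and 1013 in the induced ones. In the shTP63 line the sums were 1075 before and 1037 and 1810 after induction. S100A11 and S100A6 together made up 68.3% and 65.6% of the sum in the uninduced shSOX2 and shTP63 libraries, and 82.9% to 86.3% in the 4 induced libraries. S100A2 made up 20.0% and 22.4% of it at day 0 and 2.57% to 8.64% at day 4. S100A2 thus took a smaller share of the S100 messages in each of the 4 induced libraries than in either day 0 library.

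S100A2 had the most negative log2 change of the 5 tested S100 genes after either induction. In shSOX2 cells it measured 7.51 without doxycycline, then 5.93 and 6.12 with it. Both induced libraries were more than 2-fold below day 0, and they lay close together. The log2 change was -1.48 ± 0.66 (limma SE, day 4 n = 2, day 0 n = 1), and it did not pass (limma adjusted p = 0.493 over all genes). Of the 10536 genes tested, 37 had a lower estimate. In shTP63 cells S100A2 measured 7.92 without doxycycline, then 4.79 and 6.59 with it. Both induced libraries were again more than 2-fold below day 0, but they differed from each other by 1.80. The log2 change was -2.23 ± 0.66, with 29 genes lower, and did not pass (limma adjusted p = 0.205; range over 12 alternatives 0.00613 to 0.440). The call was made without shTP63 day 4 replicate 2, at -3.13 (limma adjusted p = 0.00613), and without replicate 1 the change was -1.33. With the other line's day 0 library as the control, an alternative chosen after seeing the data, it was -1.82 (limma adjusted p = 0.215). Being below day 0 in all 4 induced libraries is common here: 23.0% of the genes tested were, and 19.4% were above day 0 in all 4.

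The responses of S100A2 in the lines differed by a log2 value of -0.75 ± 0.93 (TP63 minus SOX2, limma adjusted p = 0.995), so no difference was detectable. Without shTP63 day 4 replicate 1 this difference was 0.15. S100A2 differed between the induced lines by -0.34 ± 0.53 (limma adjusted p = 0.728), with the induced shSOX2 libraries lying between the induced shTP63 ones. That difference was 0.56 without shTP63 day 4 replicate 1.

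S100A6 and S100A4, which lie close to S100A2 in the cluster, had higher values after TP63 hairpin induction. S100A4, whose protein binds nonmuscle myosin, measured 4.21 in shTP63 cells without doxycycline, then 4.99 and 5.76 with it. Both induced libraries were above every library of the shSOX2 line, with 4.08 without doxycycline and 4.37 and 3.17 with it. The log2 change was 1.17 ± 0.56 in the shTP63 line (limma adjusted p = 0.378) and -0.31 ± 0.56 in the shSOX2 line (limma adjusted p = 0.864), neither passing. In the shSOX2 line the induced libraries lay on either side of day 0, and without shSOX2 day 4 replicate 2 the change was 0.29. Between the induced lines S100A4 was 1.61 ± 0.46 higher with the TP63 hairpin, where 59 genes had a higher estimate, and it did not pass (limma adjusted p = 0.119; range over 10 alternatives 0.0537 to 0.379). Without shSOX2 day 4 replicate 1 this difference was 2.20, and without replicate 2 it was 1.01. The difference of the responses was 1.48 ± 0.79 (limma adjusted p = 0.995).

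S100A4 is also a marker of fibroblasts, so a fixed list of 7 fibroblast markers was read beside it. Their summed linear RPKM was 10.3 in the uninduced shSOX2 library and 158 and 29.6 in induced replicates 1 and 2. In the shTP63 line it was 5.27 before induction and 58.8 and 93.0 after it. Only COL1A1 and COL3A1 carried these sums; the other 5 stayed below 1 RPKM in every library, and DCN and LUM were at 0 in every library but induced shTP63 replicate 1, where they were at 0.02 and 0.03. COL3A1 was highest in induced shSOX2 replicate 1, at 7.29, and COL1A1 in induced shTP63 replicate 2, at 2.68, where S100A4 was highest too. Both collagen genes were above day 0 in all 4 induced libraries, as were 19.4% of all genes tested. Neither passed after SOX2 or TP63 hairpin induction (limma adjusted p = 0.417 and 0.137 for COL3A1, 0.607 and 0.207 for COL1A1). The part of these markers in the S100A4 values was not tested.

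S100A6 binds the calcyclin-binding protein CACYBP and is a gene of proliferating cells. It measured 8.04 in shTP63 cells without doxycycline, then 8.26 and 9.88 in replicates 1 and 2 with it. The higher value in replicate 2 made it the most abundant of the 10 genes there, and replicate 1 was near day 0. The log2 change, 1.03 ± 0.59, missed the threshold (limma adjusted p = 0.463). Without shTP63 day 4 replicate 1 it was 1.84 and was called (limma adjusted p = 0.0391), and without replicate 2 it was 0.22 (0.850). In shSOX2 cells S100A6 went from 7.66 to 8.01 and 7.89, which is a difference of 0.29 ± 0.59 (limma adjusted p = 0.883). Against the uninduced shTP63 library this was -0.091. Between the induced lines S100A6 was 1.12 ± 0.48 higher with the TP63 hairpin, with all 4 libraries in that order, and did not pass (limma adjusted p = 0.218). It was called without shTP63 day 4 replicate 1, at 1.94 (0.00845), and was 0.31 without replicate 2.

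S100A10 and S100A11 both encode annexin partners. S100A10, also called p11, binds annexin A2 and does not need calcium to do so. It measured 6.47 in shSOX2 cells without doxycycline, then 5.09 and 6.35 in replicates 1 and 2 with it, which is a difference of -0.75 ± 0.52 (limma adjusted p = 0.625). Replicate 1 carried most of this, and without it the change was -0.12. In shTP63 cells the S100A10 values were 6.80, then 6.88 and 6.62, which is a difference of -0.05 ± 0.52 (limma adjusted p = 0.975). It was 1.03 ± 0.42 higher in induced shTP63 than in induced shSOX2 cells and did not pass (limma adjusted p = 0.203), and without shSOX2 day 4 replicate 1 this difference was 0.40.

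S100A11 measured 8.70 in shSOX2 cells without doxycycline, then 8.35 and 9.28 in replicates 1 and 2 with it, on either side of day 0. In shTP63 cells it measured 8.80, then 9.12 and 9.28, both above day 0. Its log2 changes were 0.11 ± 0.41 (limma adjusted p = 0.936) and 0.40 ± 0.41 (limma adjusted p = 0.692). Without shSOX2 day 4 replicate 2 the first was -0.35. The difference between the induced lines was 0.39 ± 0.33 (limma adjusted p = 0.503). Its 0.93 range over the 6 libraries was the narrowest of the 5 tested genes.

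**Figure D2:**
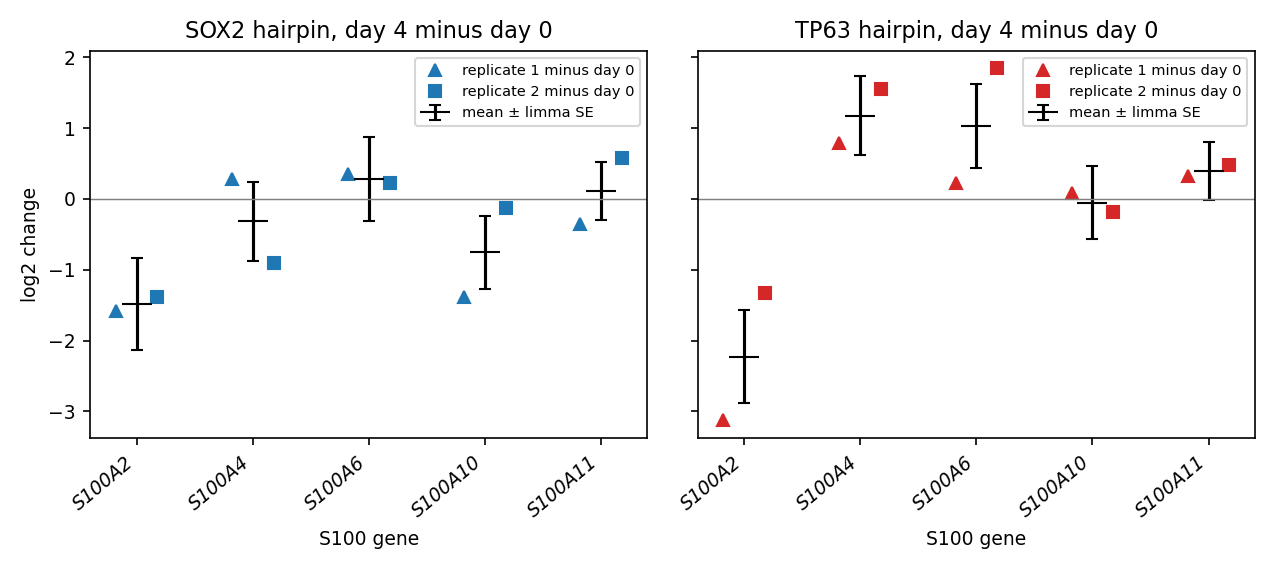
Log2 change of the 5 tested S100 genes from the day 0 library of the same line, for the SOX2 hairpin (left) and the TP63 hairpin (right); triangles and squares are day 4 replicates 1 and 2, the bar is their mean with its limma SE. S100A2 lies below -1 in all 4 induced libraries, and the TP63 hairpin replicates lie far apart for S100A2 and S100A6.

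Counted over the 5 tested S100 genes, limma called 0 after SOX2 hairpin induction (background 0%, 0 of 10536 genes), 0 after TP63 hairpin induction (background 0.019%), 0 for the difference of the responses (background 0%) and 0 between the induced lines (background 0.759%). At an unadjusted p under 0.05 the counts were 0 of 5 (background 10.4%), 1 of 5, S100A2 (14.6%), 0 of 5 (4.55%) and 2 of 5, S100A4 and S100A10 (23.0%). S100A2 was the 1 gene of the 5 at least 2-fold below day 0 in both induced libraries of a line. It met that size in both lines, as did 0.987% of all genes tested after SOX2 and 2.82% after TP63 hairpin induction. With the other line's day 0 library as control, or both, 0 of the 5 met the 2-fold size after TP63 hairpin induction. None of the 5 was 2-fold higher in this way, compared with 2.48% and 3.05% of all genes. Between the induced lines 0 of the 5 differed by that size, compared with 0.873% of all genes higher and 1.59% lower with the TP63 hairpin. Counting only whether induced libraries lay wholly on 1 side of day 0, S100A6 was higher (background 33.3%) and S100A2 and S100A10 lower (40.2%) with the SOX2 hairpin. With the TP63 hairpin S100A4, S100A6 and S100A11 were higher (37.9%) and S100A2 lower (38.5%). These shares show that such separation is common among all genes here. The median log2 change of the 5 genes was -0.31 after SOX2 and 0.40 after TP63 hairpin induction, beside medians of -0.05 and 0.00 over all genes tested. Between the induced lines the S100 median was 1.03, beside 0.05 over all genes, and S100A4, S100A6 and S100A10 were higher in both induced shTP63 libraries than in both induced shSOX2 ones, as were 30.5% of all genes, while 0 of the 5 were lower in this way (26.6%).

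S100A14 and S100A16, below the level required for testing, were lower in both induced shSOX2 libraries and higher in both induced shTP63 libraries than at day 0. S100A14 went from 0.32 to 0.22 and 0.13 with the SOX2 hairpin, and from 0.35 to 0.69 and 0.41 with the TP63 hairpin. S100A16 went from 0.84 to 0.57 and 0.45 with the SOX2 hairpin, and from 0.71 to 1.57 and 0.96 with the TP63 hairpin. In each gene the induced shTP63 libraries were above both induced shSOX2 libraries, as in 30.5% of all genes tested. Of all genes tested, a set that leaves out S100A14 and S100A16, 8.13% were lower with the SOX2 hairpin and higher with the TP63 hairpin than at day 0. The reverse held for 6.16%. In a fit without a level requirement, over 28586 genes, S100A16 differed between the induced lines by 0.76 ± 0.28 (limma adjusted p = 0.392) and S100A14 by 0.37 ± 0.13 (limma adjusted p = 0.364), neither passing.

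Of the 11 listed relatives found in the table, 2 were tested, S100A13 and S100A3. S100A13, which is known to aid the export of growth factors that lack a signal peptide, went from 3.41 to 3.40 and 3.14 in shSOX2 cells. In shTP63 cells it went from 3.16 to 4.25 and 4.32. Both induced shTP63 libraries were at least 2-fold above day 0, as in 3.05% of all genes tested, and they agreed within 0.07. The log2 change was 1.13 ± 0.33 with the TP63 hairpin (limma adjusted p = 0.207) and -0.14 ± 0.33 with the SOX2 hairpin (0.899). S100A3 differed by -0.77 ± 0.35 (limma adjusted p = 0.495) and -0.19 ± 0.35 (0.842) in the SOX2 and TP63 lines. Its mean of 1.03 RPKM was just above the level required, and its highest level, 1.63, was in the uninduced shSOX2 library. Its being tested thus leaned on that library, which favours a fall in the shSOX2 line. S100A12, S100A7L2 and S100Z were listed at 0 in every library, and S100P and S100B reached 0.23 and 0.08.

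In the RefSeq gene order the genes run S100A6, S100A5, S100A4, S100A3, S100A2, S100A16, S100A14 and S100A13, with 0 other protein-coding genes starting between neighbours. After TP63 hairpin induction S100A2 had the lowest estimate of this run, S100A3 was near 0, and S100A6, S100A5, S100A4, S100A16, S100A14 and S100A13 had values above day 0 in both induced libraries, as did 37.9% of all genes tested. The run thus did not shift in 1 direction. S100A10 and S100A11 lie at the far end, with 47 other protein-coding genes starting between S100A11 and S100A9. Reads of S100A4 may be shared with S100A3, which overlaps it on the same strand in GENCODE. In RefSeq S100A4 and S100A5 overlap instead, so their values may share reads too. S100A6 and S100A11 each overlap an antisense gene in GENCODE. No strand-specific step is stated, so reads of overlapping genes cannot be told apart.

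**Figure D3:**
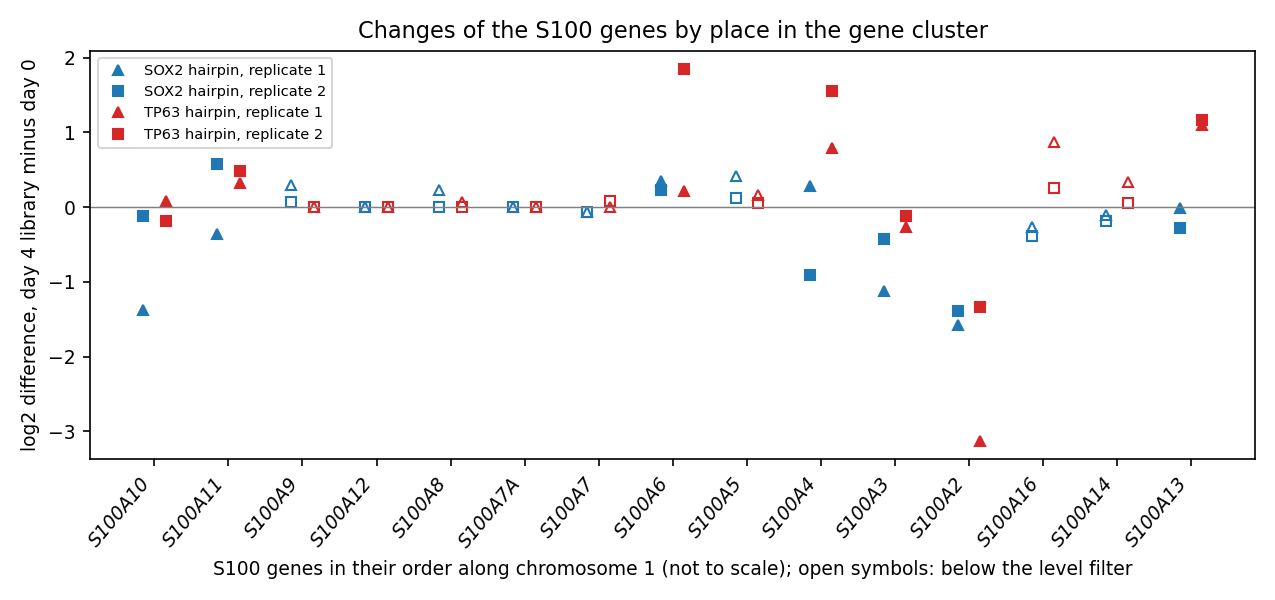
Log2 difference of each day 4 library from the day 0 library of its line, for 15 S100 genes in their order along chromosome 1 (order only, not to scale); blue is the SOX2 hairpin, red the TP63 hairpin, triangles replicate 1, squares replicate 2, and open symbols genes below 1 mean RPKM. S100A2 is lowest in both lines, beside S100A4, S100A6 and S100A13 with positive TP63 values.

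The fused-type S100 genes, whose products join an S100 domain to long repeats, were mostly off. Of 7, only FLG, which encodes filaggrin, was tested, with -1.12 ± 0.52 after SOX2 (limma adjusted p = 0.509) and -0.93 ± 0.52 after TP63 hairpin induction (limma adjusted p = 0.451). Of 23 neighbours from the epidermal differentiation complex, which lies within the same stretch of chromosome 1, only SPRR3 was tested. Its log2 changes were -2.69 ± 0.26 (limma adjusted p = 0.106) after SOX2 and -1.11 ± 0.26 (0.150) after TP63 hairpin induction. SPRR3 read 2.73 and 1.16 in the uninduced shSOX2 and shTP63 libraries and at most 0.10 in the induced ones. Its mean of 1.17 RPKM met the level requirement only through the day 0 libraries, so a fall was built into its being tested. Below the level requirement, SPRR1A, SPRR1B, SPRR2A, SPRR2B, SPRR2D, SPRR2E, SPRR2F and LCE3D were under day 0 in all 4 induced libraries. Of all genes tested, 23.0% were. The highest of these, SPRR1B, read 2.14 in the uninduced shTP63 library, and 0.23 and 0.14 in induced replicates 1 and 2. LCE1C was above day 0 in all 4, and the rest were mixed or at 0. LOR, LCE3A and 4 others of that list were at 0 in every library. Calls were thus 0 of 1 in each list after either induction.

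The intracellular partners of S100 proteins were largely present, 12 of 13 being tested, and 0 were called in any comparison. ANXA2, the partner of S100A10, had log2 changes of -0.13 ± 0.39 (limma adjusted p = 0.921) after SOX2 and 0.61 ± 0.39 (0.504) after TP63 hairpin induction. CACYBP, the partner of S100A6, was lower in all 4 induced libraries, as were 23.0% of all genes tested. Its log2 changes were -0.71 ± 0.36 (limma adjusted p = 0.534) and -0.999 ± 0.36 (0.275). SUGT1, a chaperone adaptor that binds S100A6, had -0.66 ± 0.36 (0.547) after SOX2 hairpin induction. ANXA6 and ANXA11, annexins that bind S100A6, had 1.55 ± 0.37 (limma adjusted p = 0.160) and 1.02 ± 0.32 (0.226) after TP63 hairpin induction. For each, both libraries were at least 2-fold above day 0, as in 3.05% of all genes tested. In the shSOX2 line ANXA6 and ANXA11 had -0.12 ± 0.37 (limma adjusted p = 0.926) and 0.23 ± 0.32 (0.816). The list's median was -0.19 after SOX2 and -0.07 after TP63 hairpin induction, near those of all genes. FABP5, a fatty acid carrier that binds S100A7, reached at most 0.46.

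Of the 8 receptor and signalling genes 3 were tested, with 0 calls in any comparison. AGER, which encodes RAGE, had log2 changes of 0.31 ± 0.31 (limma adjusted p = 0.734) after SOX2 and -0.27 ± 0.31 (0.730) after TP63 hairpin induction. BSG, which encodes the S100A9 receptor basigin, had 0.91 ± 0.40 (0.485) and -0.21 ± 0.40 (0.851). TRAF6 had -0.08 ± 0.28 (0.934) and -0.15 ± 0.28 (0.845).

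Of 17 cytokines, receptors and factors reported to induce S100A7, S100A8 and S100A9 in keratinocytes, 11 were tested and 0 were called in any comparison. IL20RB, a receptor chain for IL-20 family cytokines, went from 1.99 to 4.74 and 4.85 in shSOX2 cells. Its log2 change of 2.80 ± 0.75 was exceeded by 2 genes and did not pass (limma adjusted p = 0.368). After TP63 hairpin induction it stood at 2.25 and 4.38 against 2.61, on either side of day 0. IL1A had 0.99 ± 0.30 (limma adjusted p = 0.405) after SOX2 and -0.16 ± 0.30 (0.851) after TP63 hairpin induction. JUNB had 0.36 ± 0.37 (0.743) and 1.44 ± 0.37 (0.169). The medians of the 11 were 0.41 and 0.42, beside -0.05 and 0.00 over all genes tested. S100A7, S100A8 and S100A9 stayed at or below 0.30 in every library. A link between the 2 was not tested.

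**Figure D4:**
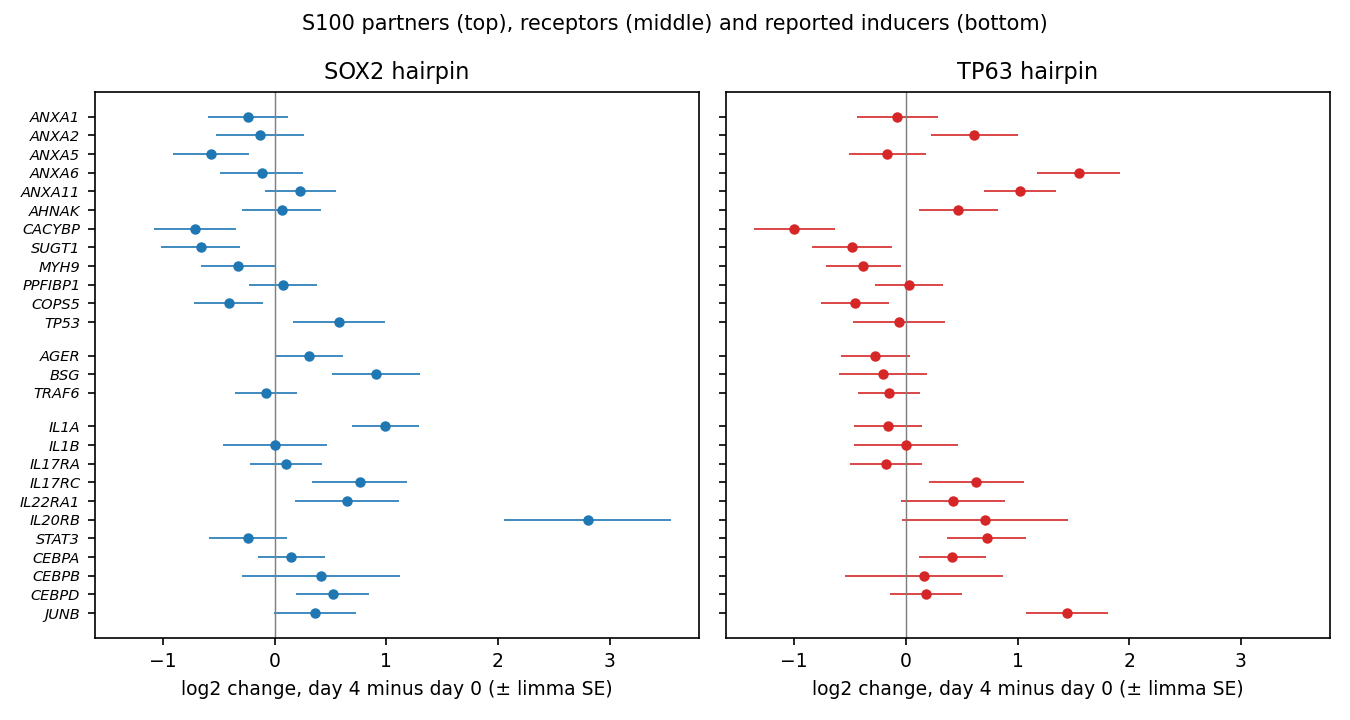
Log2 change with its limma SE for the tested S100 partners (top), receptors (middle) and reported inducers (bottom) after induction of the SOX2 hairpin (left) and the TP63 hairpin (right). IL20RB at 2.80 stands out on the left, and ANXA6 at 1.55, JUNB at 1.44 and ANXA11 at 1.02 on the right.

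AP-1 factors bind TGANTCA, and 5 of their 7 subunit genes were tested. FOSL1 was called after TP63 hairpin induction, at -3.91 ± 0.32 (limma adjusted p = 0.0317). Its estimate was the lowest of all genes tested. Without shSOX2 day 4 replicate 1 or 2 the limma adjusted p was 0.226 for each, and with replicate number as a block it was 0.155. Without shTP63 day 4 replicate 1 or 2 it was 0.00656 or 0.00343. After SOX2 hairpin induction FOSL1 had -1.79 ± 0.32 (limma adjusted p = 0.294). JUN had -1.53 ± 0.43 (0.195) after TP63 hairpin induction and JUNB, given above, the opposite sign. Whether S100A2 depends on any of these was not tested.

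By Pearson correlation over the 6 libraries, the tested genes most like S100A2 were UGT8 (r = 0.992), C20orf27 (0.991), FAM92A1 (0.987), EGLN2 (0.984) and ORC5 (0.981). Those most like S100A4 were RPS3AP47 (0.993), BAHD1 (0.993), KLC4 (0.987), PRKAR1A (0.984) and PANX2 (0.982). Those most like S100A6 were HMOX1 (0.993), TOP2B (0.993), KRT15 (0.992), SNAPC3 (0.989) and FTH1P23 (0.987). With 6 points, 118, 233 and 183 genes exceeded an r of 0.9 with S100A2, S100A4 and S100A6, and all libraries share 1 normalization. Among the S100 genes themselves S100A4 and S100A6 were most alike (r = 0.822), and S100A2 had r between -0.24 and 0.16 with the other 4.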

How the data were processed

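Poly(A) RNA of 6 libraries was sequenced. The authors deposited 1 table named as RPKM. Its values (0 to 13.4, with the same highest value in every library) were read as deposited log2(RPKM + 1) values, base 2 assumed, that the authors had quantile-normalized between libraries; this comes from the values, and no source used here states it. Of the values above 0, 82.9% are whole multiples of 1/7000 and 100% of 1/14000 (within 0.01 of a step), as a mean of 7 columns would give, while 6 libraries were analysed here. The submitters' processing notes name the build hg19. The aligner and counter: not given in the sources used here. Linear RPKM is 2 to the power of the value, minus 1.

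Genes with a mean of at least 1 linear RPKM (10536 of 48644) were fitted with limma 3.58.1 (R 4.3.3, trended variance, 4 group means, 2 residual degrees of freedom), with Benjamini-Hochberg adjustment over all of them and calls at an adjusted p under 0.05. The script was tested on simulated data. The S100 genes and all lists were chosen with earlier results of these data known. All 10 S100 genes and every tested relative were named. Of each other list, genes past the threshold and up to 5 with the largest change per induction were eligible. Genes named at or near 0, or below the level requirement, were chosen after their values were seen. For the 3 S100 genes of widest range the 5 most correlated genes were named. The replicate numbers were not treated as pairs. Across genes, deviations of day 4 replicate 1 from its group mean had a correlation of -0.07 between the lines. With 2 libraries a group, replicate 2 mirrors replicate 1 and gives the same value. The alternatives are given in the closing section.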

Additional observations from a re-analysis of the deposited data

Results flagged for a closer look

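S100A14 and S100A16 lay below day 0 in both induced shSOX2 libraries and above it in both induced shTP63 libraries, which is why they are listed here. Both were below the level required for testing, so the difference was not tested in the fit behind the report. The TP63 response minus the SOX2 response was 0.34 for S100A14 and 0.89 for S100A16, on the log2(RPKM + 1) scale. In the fit without a level requirement neither difference passed (limma adjusted p = 0.766 for S100A14 and 0.711 for S100A16).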

How the results depend on the processing

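No tested S100 gene was called in any comparison under a pseudocount of 5, no level requirement, a mean of at least 5 RPKM, median-ratio scaling, the replicate block, other day 0 controls, the 3 libraries of a line alone or the 4 day 4 libraries alone. Leaving out each day 4 library in turn gave 0 to 1 called S100 genes after TP63 hairpin induction and 0 to 1 between the induced lines, namely S100A2 or S100A6 as given above; a lone library is then assumed to vary like the other groups. Over those fits, S100 genes at least 2-fold apart numbered 1 to 2 after SOX2 and 1 to 3 after TP63 hairpin induction. Between the induced lines they numbered 1 to 2, where it was 0 with all libraries. In the line that lost a library the rule then rested on 1 day 4 library, which makes it easier to meet. The share over all genes was not counted for those fits, so these counts cannot be set beside the shares given above. Against both day 0 libraries, or that of the other line, 0 S100 genes met the 2-fold size after TP63 hairpin induction.

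Genes called overall depended on the setting. After SOX2 hairpin induction (0 called) the count was 1 with a pseudocount of 5, 2 with both day 0 libraries, 4 with the other line's day 0 library (an alternative chosen after seeing the data), 11 with the 3 libraries alone and 0 to 11 when leaving out a library. After TP63 hairpin induction (2 called) it was 154 with no level requirement, 1 at 5 RPKM, 0 with the replicate block, 291 with both day 0 libraries, 0 with the 3 libraries alone, 49 with the other day 0 library and 0 to 80 when leaving out a library. For the difference of the responses it was 0 to 5 when leaving out a library. Between the induced lines (80 called) it was 30 with a pseudocount of 5, 0 with no level requirement, 44 at 5 RPKM, 18 with the replicate block and 0 to 324 when leaving out a library. The cause was not tested.

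Some signs reversed. S100A10 after TP63 hairpin induction had 0.20 with the replicate block, 0.11 with both day 0 libraries and 0.28 with the other line's day 0 library; leaving out a library gave -0.18 to 0.080. S100A6 after SOX2 hairpin induction had -0.091 with the other day 0 library. Leaving out a library gave ranges that crossed 0 for S100A4 (-0.91 to 0.29) and S100A11 (-0.35 to 0.58) after SOX2 hairpin induction. For the difference of the responses they crossed 0 for S100A2 (-1.64 to 0.15), S100A6 (-0.068 to 1.56) and S100A11 (-0.18 to 0.75), and between the induced lines for S100A2 (-1.24 to 0.56) and S100A11 (-0.080 to 0.85). With the replicate block S100A2 had -0.99 after SOX2 and -1.73 after TP63 hairpin induction (limma adjusted p = 0.270). The sign of S100A2 after either induction was negative in all 12 alternatives. Depth is unknown, and 1 day 0 library a line limits every response.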
